A study of Mus musculus with 12 samples.

Results

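The genotype by LPS interaction asks, gene by gene, whether blood neutrophils labelled Hmgb1ΔMye answered lipopolysaccharide (LPS) differently from wild-type (WT) neutrophils. It is the log2 LPS response of the KO-labelled libraries (mean of KO-LPS minus mean of KO-Saline) minus the log2 LPS response of the WT libraries (mean of WT-LPS minus mean of WT-Saline), and it was computed for all 9374 of the 9374 genes in the deposited expression table from all 12 of the 12 libraries. A positive value means that the KO-labelled response was the higher, or the less negative, of the pair. The 4 groups, each of 3 libraries, were neutrophils of female mice: WT given saline (WT-Saline), WT given LPS at 0.5 mg/kg (WT-LPS), Hmgb1ΔMye given saline (KO-Saline) and Hmgb1ΔMye given the same LPS dose (KO-LPS), all with 16 hours of treatment. The name ΔMye stands for a deletion in myeloid cells. No Cre driver, background strain or age is given in the labels used here, nor whether a library came from 1 mouse or several. The p-values therefore speak only of the spread among these libraries, which may be technical.

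LPS, a component of the outer membrane of Gram-negative bacteria, is sensed by Toll-like receptor 4. One arm of the signal runs through MyD88 to NF-κB and the MAP kinases and drives cytokines, chemokines and their feedback inhibitors, and another runs through TRIF to type I interferon, whose receptor activates STAT2 and IRF9 at interferon-stimulated genes. HMGB1 is an abundant nuclear DNA-binding protein that can also leave the cell and act as an alarm signal through Toll-like receptors and the receptor RAGE. Neutrophils carry granule proteins that they make while they mature in the bone marrow, azurophil granule proteins first, specific granule proteins such as lactoferrin later and gelatinase granule proteins last.

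Depth was low: 399702 to 526757 reads per library, with a median gene at 11.33 reads, so that 1 read was worth 1.86 to 2.67 CPM (counts relative to library size, in which levels are given) and a count of 0 allowed up to 5.58 to 8 CPM (3 reads; counting error only). The library KO-LPS replicate 1 stood apart from its group. On the first principal component (29.1% of the variance) it lay at -27, while KO-LPS replicates 2 and 3 lay at 68.6 and 68.3, the WT-LPS libraries at 55.1 to 65.1 and the saline libraries at -59.2 to -31.9. Its median Pearson correlation across genes was 0.786 with its own group and 0.843 with KO-Saline. Whether this library carries the right label was not tested. KO-Saline replicate 3 lay alone on the second component (10.8% of the variance), at -103.2, and had 0 reads for 19.2% of the genes. Interactions are therefore given with and without KO-LPS replicate 1 for the genes described singly and for the lists. Neutrophil transcripts were present in every library: none of the 16 mature neutrophil markers was at 0 reads in any library, and their mean level ran from 8.59 to 9.22 log2 CPM. The strand setting of the counting is not given in the sources used here, and 170 of 229 long non-coding RNAs lying over a coding gene in antisense (74.2%, 95% interval 68.1% to 79.8%, exact binomial) exceeded that gene in reads. Whether reads were counted on the wrong strand was not tested, and such counting would affect genes without an annotated overlap as well. Genes whose exons overlap an opposite-strand gene are named as uncertain below, which does not make the reads of the others certain.

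The reads of the targeted gene did not separate the genotype labels. Hmgb1 (5:149046702-149184489 in mm10, minus strand), whose exons overlap Uspl1 on the other strand, was at 19.4, 35.9 and 22.4 CPM across WT-Saline, 33.2, 31.6 and 63.2 across WT-LPS, 36.7, 21.7 and 60.8 across KO-Saline, and 16, 74 and 34.3 across KO-LPS. The groups overlapped in every comparison, and the deleted part of the gene is not given in the sources used here, so that reads from outside it check nothing. The libraries are therefore called KO-labelled. Its interaction was -0.75 ± 0.81 on the log2 scale (SE; adjusted p = 0.923, limma), and -0.22 without KO-LPS replicate 1.

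No gene passed the test for an interaction with all libraries. With limma and Benjamini-Hochberg adjustment over all genes, 0 of 9374 were called at an adjusted p under 0.05 (0%), the smallest adjusted p being 0.226. At an unadjusted p under 0.05 there were 560 genes, or 5.97%, of which 290 were positive (3.09%) and 270 negative (2.88%). With voom's weights for read depth, limma called 2 genes, Csnk1d among them. The median interaction over all genes was 0.01, and the 5th and 95th percentiles were -1.92 and 2.1. The precision was limited: the median standard error was 1, the median 95% interval reached 2.04 to either side, and the interval lay wholly within 1 of 0 on the log2 scale (a change of the response by less than 2-fold) for 641 genes. The median size of the WT response was 1.83 among genes called in WT, so that an interaction as large as such a response was not detectable for most genes at this depth. Without KO-LPS replicate 1, 3 genes were called (0.032%) and 542 had an unadjusted p under 0.05 (5.78%).

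The LPS responses of the genotype labels, which share no library, ran mostly in the same direction. Over all 9374 genes, 6409 (68.4%) had estimates of the same sign. In WT, 1095 genes were called (11.7%), 630 higher (6.72%) and 465 lower (4.96%) with LPS. In KO-labelled libraries 314 were called (3.35%), 187 higher (1.99%) and 127 lower (1.35%), and without KO-LPS replicate 1 there were 1076 (11.5%). Of the 1095 genes called in WT, 1052 (96.1%) had an estimate of the same sign in the KO-labelled libraries, with a median ratio of KO-labelled to WT response of 0.55, or 0.76 without KO-LPS replicate 1. Of the 314 called in KO-labelled libraries, 310 (98.7%) had the same sign in WT and the ratio was 0.86, or 1.12 without that library. A set chosen by its call in a genotype label favours large estimates in that label, and the ratios carry that choice. For the 249 genes called in both, the median ratio was 0.81 with all libraries and 1.03 without KO-LPS replicate 1. Across all genes Pearson's r between the 2 responses was 0.52 and Spearman's rho 0.47 (0.59 and 0.53 without that library). Across the 4964 genes with a mean of at least 10 reads they were 0.74 and 0.65. These are descriptions across genes, which are not independent replicates.

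**Figure D1:**
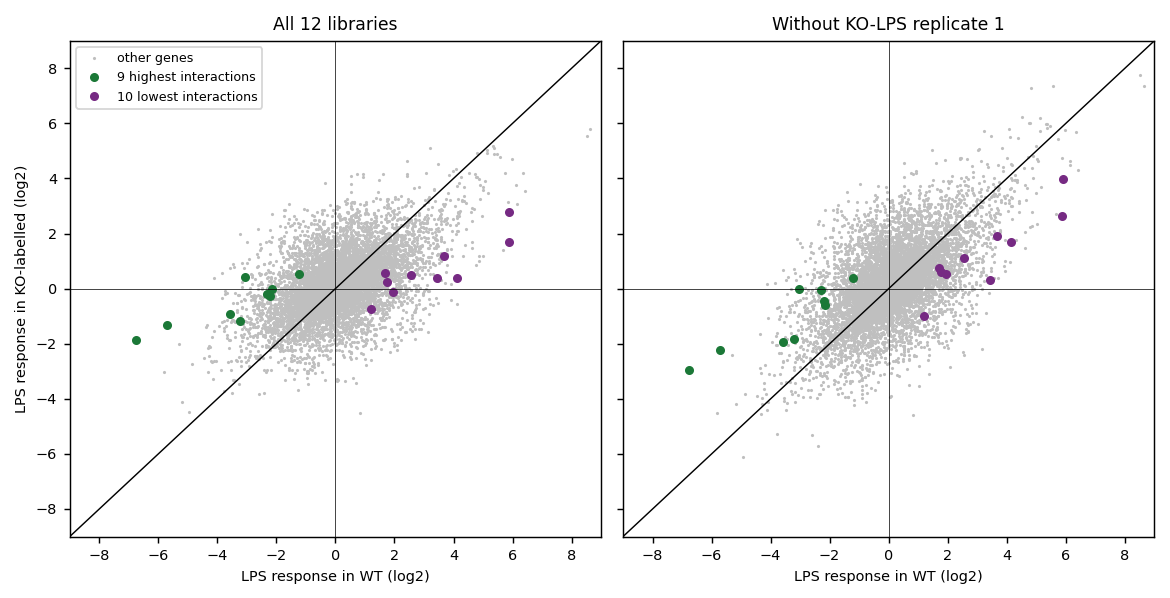
Each point is a gene, plotted by its log2 LPS response in WT (x axis) and in KO-labelled libraries (y axis), with all 12 libraries (left) and without KO-LPS replicate 1 (right). The line marks equal responses. Coloured are 9 genes with the smallest interaction p in the positive and 10 in the negative direction. Most lie on the same side of 0 in both genotypes but nearer to 0 in the KO-labelled libraries.

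Among genes of at least median level, with predicted genes (those named Gm or Rik among them) and pseudogenes left aside, the 10 positive interactions with the smallest p were all genes with a negative estimate of the LPS response in WT. They included Csnk1d, Ttc21a, Smu1, Zswim4, Sik1, Clec9a, Hspd1, Mir3074-2 and Cnnm2, and the WT responses of these 9 ran from -1.22 (Sik1) to -6.75 (Clec9a). In the KO-labelled libraries 8 of the 10 had a smaller fall in estimate, of which Zswim4 alone was called (-1.19 ± 0.33, adjusted p = 0.0403), and Sik1 and Hspd1 had a small positive estimate.

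Csnk1d (11:120961749-120991330, minus strand) encodes casein kinase 1 delta, which phosphorylates the circadian clock's PER proteins among other substrates. Its exons overlap Gm28192 on the opposite strand, so its reads are uncertain. It was at 3540, 2240 and 2810 CPM across WT-Saline, 436, 772 and 741 across WT-LPS, 887, 866 and 1310 across KO-Saline, and 2130, 654 and 680 across KO-LPS. KO-Saline lay wholly below WT-Saline, and the LPS groups overlapped. The interaction was 2.13 ± 0.44 (adjusted p = 0.226), and 1.57 ± 0.29 without KO-LPS replicate 1 (adjusted p = 0.0327). The genotype gap of this gene was the larger in saline (-1.49, against 0.64 in LPS).

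Ttc21a, a relative of intraflagellar transport proteins of cilia, fell in WT from 411, 404 and 339 CPM to 2.37, 38 and 1.86. It was at 184, 154 and 75.4 CPM across KO-Saline and at 181, 29.6 and 23.6 across KO-LPS. The range within WT-LPS rests on replicate 2, and without that library the interaction of 4.39 ± 0.97 became 5.6 ± 0.78 (adjusted p = 0.000943), while without KO-LPS replicate 1 it was 3.48 (adjusted p = 0.145). Smu1, a spliceosome factor that shares exons with Dnaja1 on the other strand, showed a WT fall of -2.2 ± 0.31 and a KO-labelled estimate of -0.26 ± 0.31, and its interaction of 1.95 was 1.76 without KO-LPS replicate 1. For Smu1 the KO-LPS libraries, at 155, 106 and 101 CPM, all lay above the WT-LPS libraries, at 61.6, 54.8 and 42.7.

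Sik1, a salt-inducible kinase that restrains CREB-regulated transcription, went from 702, 292 and 358 CPM across WT-Saline to 216, 122 and 216 across WT-LPS. In KO-Saline it was already at 218, 154 and 178 CPM, and in KO-LPS it was at 315, 212 and 270. The gap between genotype labels was thus on opposite sides in saline (-1.2) and LPS (0.55), and the interaction of 1.75 was 1.62 without KO-LPS replicate 1. The same held for Hspd1, the mitochondrial chaperonin HSP60, whose exons overlap Hspe1 on the other strand. Hspd1 was at 220, 69.8 and 151 CPM across WT-Saline, and every library of the other 3 groups lay between 7.4 and 32 CPM. Its interaction of 3.48 ± 0.91 (adjusted p = 0.407; 3.04 without KO-LPS replicate 1) therefore rests on the high WT-Saline level.

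Clec9a, a lectin receptor for dead cells known from cross-presenting dendritic cells, had 0 reads in all 3 WT-LPS libraries. It was at 67.8, 146 and 143 CPM across WT-Saline, at least 18.8-fold higher than the floor of 3 reads per library allows in WT-LPS, at 26.2, 75.9 and 41.3 across KO-Saline and at 56, 4.93 and 4.29 across KO-LPS. KO-LPS was at least 3.43-fold higher than WT-LPS on the same bound, and most of that level came from replicate 1. The interaction of Clec9a was 4.9 ± 1.19, and 3.79 without KO-LPS replicate 1. In that second fit the LPS gap rests on 2 reads in each KO-LPS library, fewer than the 3 reads that a count of 0 allows. Clec9a overlaps Clec1b on the same strand. Cnnm2, a membrane protein of magnesium homeostasis, was 14.2, 29.5 and 26 CPM across WT-LPS and 66.7, 79 and 118 across KO-LPS, without overlap, and its interaction of 2.1 ± 0.59 (adjusted p = 0.537) was 2.27 without KO-LPS replicate 1. In saline its genotype labels overlapped.

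Zswim4 and Mir3074-2 are neighbours on the minus strand of chromosome 8 (Zswim4 8:84210678-84237055, Mir3074-2 8:84208825-84208907). Zswim4 fell in WT from 1310, 941 and 1020 CPM to 119, 118 and 110, and went from 517, 486 and 484 to 531, 155 and 122 in the KO-labelled libraries. Mir3074-2 followed the same order, from 610, 493 and 253 CPM to 26.1, 44.3 and 35.3 in WT and from 205, 202 and 255 to 459, 44.4 and 72.9 in the KO-labelled libraries. For both genes KO-LPS replicate 1 was at or above its saline level. The other KO-LPS libraries also lay above WT-LPS, but the nearest ones hardly differed. These were 122 against 119 CPM for Zswim4, and 44.4 CPM (18 reads) against 44.3 CPM (21 reads) for Mir3074-2. Reads at Mir3074-2 cannot be told from reads at Mir24-2, which lies over the same bases on the plus strand, because the strand setting is not known. These reads are taken to describe the locus and not the mature microRNAs. The mature sequences of both hairpins (RefSeq, GRCm38/mm10) are shown with the seed, bases 2 to 8, in capitals, because the overlap of the hairpins makes the arms nearly complementary while their seeds differ:
mmu-miR-3074-2-3p: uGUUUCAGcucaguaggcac
mmu-miR-3074-5p: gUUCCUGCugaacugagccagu
mmu-miR-24-2-5p: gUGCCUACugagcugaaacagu
mmu-miR-24-3p: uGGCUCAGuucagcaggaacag
No 2 of the 4 share a seed. The interaction was 2.02 ± 0.47 for Zswim4 (adjusted p = 0.272) and 2.65 ± 0.70 for Mir3074-2 (adjusted p = 0.407), and without KO-LPS replicate 1 it was 1.38 and 1.66.

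**Figure D2:**
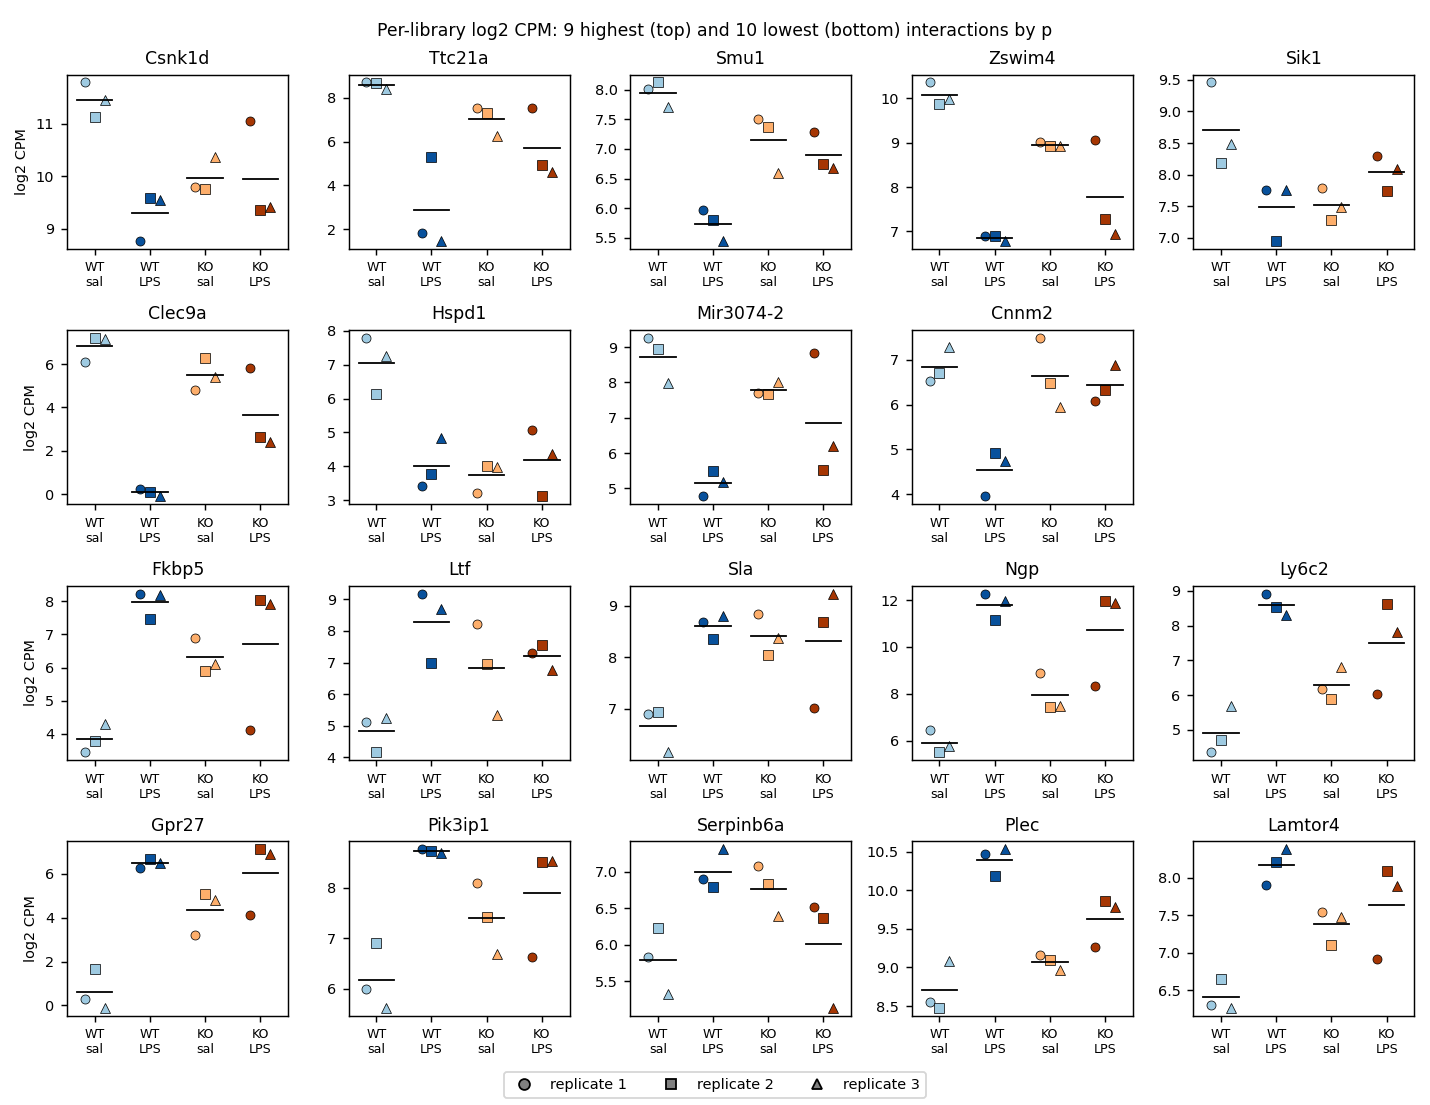
Levels in log2 CPM (y axis, 0.5 reads added) of 9 positive and 10 negative interactions of smallest p, by group (x axis). Each symbol is a library, its shape is the replicate number and the bar is the group mean. The circle in KO-LPS is replicate 1, which sits on the saline side of its group in most panels.

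The 10 negative interactions with the smallest p, chosen with predicted genes and pseudogenes left aside in the same way, were all genes with a positive estimate of the LPS response in WT: Fkbp5, Ltf, Sla, Ngp, Ly6c2, Gpr27, Pik3ip1, Serpinb6a, Plec and Lamtor4. Their WT responses ran from 1.21 (Serpinb6a) to 5.89 (Ngp). In the KO-labelled libraries Ngp alone was called (2.8 ± 0.55, adjusted p = 0.0046), and the estimates of Sla and Serpinb6a were negative. The genotype gap was larger in saline than in LPS for 8 of these 10, with KO-Saline the higher, and for 4 of the 10 positive interactions.

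Fkbp5 (17:28399094-28517527, minus strand) encodes a co-chaperone of the glucocorticoid receptor and is a well-known glucocorticoid-induced gene. It was at 9.68, 12.7 and 18.6 CPM across WT-Saline and 299, 177 and 294 across WT-LPS, against 118, 58.6 and 68.1 across KO-Saline and 16, 262 and 242 across KO-LPS. KO-Saline lay wholly above WT-Saline, KO-LPS replicate 1 was as low as the WT-Saline libraries, and KO-LPS replicates 2 and 3 lay within the WT-LPS range. The response was 4.13 ± 0.61 in WT and 0.39 ± 0.61 in KO-labelled libraries, and the interaction of -3.74 ± 0.87 (adjusted p = 0.272) was -2.45 without KO-LPS replicate 1.

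Ltf (9:111019271-111042767, plus strand) encodes lactoferrin, the iron-binding protein of specific granules. It was at 33.9, 16.9 and 37.3 CPM across WT-Saline, 581, 127 and 411 across WT-LPS, 299, 122 and 38.9 across KO-Saline, and 157, 188 and 107 across KO-LPS. Here KO-LPS replicate 1 was no outlier in its group: the 3 KO-LPS libraries overlapped both KO-Saline and WT-LPS. The response was 3.44 ± 0.52 in WT (adjusted p = 3.96e-05) and 0.38 ± 0.52 in KO-labelled libraries (adjusted p = 0.771). The interaction was -3.06 ± 0.73 (adjusted p = 0.292) with all libraries and -3.11 without KO-LPS replicate 1.

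Ngp (9:110419747-110423012, plus strand), neutrophilic granule protein, had the most reads of the 20. It rose in WT from 84.7, 44.4 and 54 CPM to 4980, 2250 and 3960. In KO-Saline it was at 470, 174 and 175 CPM, wholly above WT-Saline, and in KO-LPS at 323, 3990 and 3770. KO-LPS replicate 1 thus lay within the saline range while replicates 2 and 3 lay within the WT-LPS range, and the interaction of -3.09 ± 0.78 (adjusted p = 0.345) was -1.9 without that library.

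Ly6c2, a Ly6C surface antigen of monocytes that neutrophils also carry, resembled Ngp, with 19.4, 25.4 and 50.3 CPM across WT-Saline, 484, 371 and 318 across WT-LPS, 70.9, 58.6 and 112 across KO-Saline and 64, 390 and 225 across KO-LPS. Unlike for Ngp, its KO-LPS replicate 3 lay below every WT-LPS library. The interaction of Ly6c2 was -2.48 ± 0.63, and -1.75 without KO-LPS replicate 1. Sla, a Src-like adaptor that dampens receptor signalling, was at 119, 120 and 70.8 CPM across WT-Saline and 412, 325 and 440 across WT-LPS, but already at 457, 263 and 331 across KO-Saline. Its KO-LPS libraries were at 128, 412 and 598 CPM, and its interaction of -2.05 ± 0.51 was -1.4 without KO-LPS replicate 1. Gpr27, an orphan G-protein-coupled receptor, had 1 read in all of WT-Saline, so that the WT ratio of 127 has a 95% counting interval of 22.4 to 5060. Gpr27 was at 75.9, 101 and 89.2 CPM across WT-LPS, 7.87, 32.5 and 26.8 across KO-Saline, and 16, 138 and 118 across KO-LPS. Its interaction of -4.18 ± 1.1 was -3.22 without KO-LPS replicate 1.

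Serpinb6a and Plec showed lower KO-LPS than WT-LPS levels in every library. Serpinb6a, an intracellular inhibitor of serine proteases, was at 119, 110 and 158 CPM across WT-LPS and 90.7, 81.4 and 34.3 across KO-LPS, and its KO-Saline libraries (134, 113 and 82.7) lay above WT-Saline (55.7, 74 and 39.1). Its exons overlap Nqo2 and Ripk1 on the other strand, and its interaction of -1.96 was -2.22 without KO-LPS replicate 1. Plec, the cytoskeletal linker plectin, which overlaps Parp10 on its own strand, was at 373, 357 and 546 CPM across WT-Saline, 1420, 1170 and 1480 across WT-LPS, 572, 547 and 499 across KO-Saline and 611, 925 and 879 across KO-LPS. Plec had the most precise estimate of the 20, -1.13 ± 0.31 (95% interval -1.77 to -0.49, adjusted p = 0.533; -0.94 without KO-LPS replicate 1). Pik3ip1, an inhibitor of PI3 kinase with an opposite-strand overlap (Gm12592), had an interaction of -2.06 ± 0.56 (-1.43 without that library), and Lamtor4, a subunit of the Ragulator complex that anchors mTORC1 signalling at lysosomes, of -1.51 ± 0.42 (-1.15 without it).

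Of these 20 genes, from which predicted genes and pseudogenes were left aside, 16 had KO-labelled responses of the same sign as in WT but smaller, 4 (Sik1, Hspd1, Sla and Serpinb6a) had estimates of opposite sign, and none had a larger response of the same sign. Without KO-LPS replicate 1, 17 of the 20 interactions were smaller in size (9 of the 10 positive and 8 of the 10 negative), and all 20 kept their direction and an unadjusted p under 0.05. The 20 were chosen by their interaction p, so these counts describe them and are no test.

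**Figure D3:**
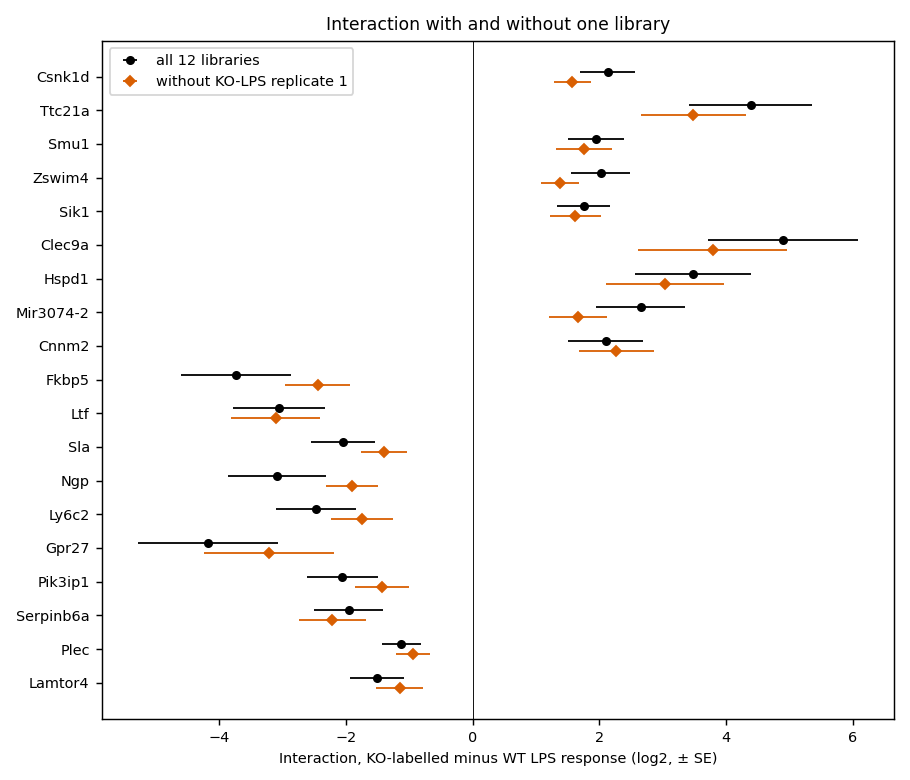
Interaction estimates (x axis, log2, KO-labelled minus WT response) of the same 19 genes with their standard errors, with all 12 libraries (black) and without KO-LPS replicate 1 (orange). Estimates move towards 0 without that library except for Cnnm2, Ltf and Serpinb6a.

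Most interferon-stimulated genes had a lower estimate of the LPS response in the KO-labelled libraries than in WT, and none was called for the interaction. Of 49 genes in the list, 44 were measured, 0 were called (background 0%), and 36 had a negative estimate (all genes, 49.3%). The median interaction was -0.63 (all genes, 0.01), and -0.48 without KO-LPS replicate 1. At an unadjusted p under 0.05 there were 9 members lower, beside 2.88% of all genes, and 1 higher, beside 3.09%. In WT 27 of the 44 rose with LPS and 0 fell (background 6.72% higher). In KO-labelled libraries 9 rose and 0 fell (background 1.99% higher), or 16 rose without KO-LPS replicate 1 (5.97%). The median member's response was 1.39 in WT and 0.8 in KO-labelled libraries. The mean level over the 44 genes was 5.13, 5.21 and 5.36 log2 CPM across WT-Saline, 5.31, 5.45 and 5.04 across KO-Saline, 7.15, 6.93 and 6.7 across WT-LPS, and 6.14, 6.56 and 6.42 across KO-LPS. The saline groups overlapped, and every KO-LPS library, replicate 1 included, lay above all saline libraries and below all WT-LPS libraries. List members respond to a common signal and are not independent. The count of 9 moved with the libraries: it fell to 4 without WT-LPS replicate 1, KO-Saline replicate 2 or KO-LPS replicate 3, to 5 without WT-LPS replicate 2 and to 6 without WT-Saline replicate 1. It also moved with the fit, to 4 without the mean-variance trend and to 7 with voom weights. The median stayed between -0.75 and -0.48 over all alternatives.

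Among the signal transducers of the list, Stat2 (10:128270559-128292849, plus strand), the interferon-specific STAT, had the smallest p. It was at 31.5, 44.4 and 41 CPM across WT-Saline, 201, 173 and 173 across WT-LPS, 42, 80.3 and 34.1 across KO-Saline, and 66.7, 71.6 and 105 across KO-LPS. All 3 KO-LPS libraries lay below WT-LPS, and the saline groups overlapped. The response was 2.21 ± 0.37 in WT (adjusted p = 0.000145) and 0.69 ± 0.37 in KO-labelled libraries (adjusted p = 0.346), and the interaction was -1.51 ± 0.53 (adjusted p = 0.773; -1.39 without KO-LPS replicate 1). The members described from here to the end of the list, apart from Gbp2, were named after their values were seen. Irf9, the DNA-binding partner of STAT2, was at 166, 173 and 139 CPM across WT-LPS and 93.4, 113 and 144 across KO-LPS, and had responses of 1.01 and 0.02 (interaction -0.99, and -0.85 without KO-LPS replicate 1). The LPS groups of Irf9 overlapped, and KO-Saline (110, 128 and 105 CPM) lay wholly above WT-Saline (72.6, 84.6 and 78.2). Irf7, the master regulator of later interferon production, rose in both: its responses were 2.1 and 1.8, with an interaction of -0.31 (95% interval -1.03 to 0.42; -0.11 without KO-LPS replicate 1), but its exons overlap Phrf1.

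Among the effectors, Gbp2 (3:142620602-142638008, plus strand), a guanylate-binding GTPase of intracellular defence whose exons overlap Mir6381 on the other strand, rose in both genotype labels, from 14.5, 19 and 16.8 CPM to 306, 105 and 193 in WT and from 23.6, 65.1 and 58.4 to 179, 141 and 178 in KO-labelled libraries. The LPS groups overlapped, and KO-Saline lay above WT-Saline. Its interaction was -1.54 ± 0.59 (adjusted p = 0.773; -1.6 without KO-LPS replicate 1), so the estimate rests on the saline gap of 1.38 rather than the LPS gap of -0.16. Rsad2, the antiviral enzyme viperin, showed the other arrangement: 148, 123 and 119 CPM across WT-Saline and 197, 122 and 90 across KO-Saline overlapped, while 581, 430 and 256 across WT-LPS all exceeded 227, 232 and 167 across KO-LPS. Its interaction was -0.95 ± 0.43, and -1.02 without KO-LPS replicate 1.

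Ifit3, which binds other IFIT proteins that recognise foreign RNA, rose in both, with responses of 3.48 ± 0.44 and 2.11 ± 0.44 (interaction -1.36, and -1.5 without KO-LPS replicate 1). Ifih1, the RNA sensor MDA5, was at 142, 118 and 115 CPM across WT-LPS and 98.7, 101 and 98.6 across KO-LPS. In saline it was at 7.26, 33.8 and 27.9 CPM in WT and 39.4, 32.5 and 51.1 in KO-labelled libraries. The saline groups overlapped, with 3 reads in WT-Saline replicate 1, while KO-LPS lay wholly below WT-LPS. The interaction of Ifih1 was -1.34 ± 0.63 (-1.34 also without KO-LPS replicate 1), and -1.73 to -0.71 over the alternatives. In estimate the saline gap of 1.02 was larger than the LPS gap of -0.32. Parp14, an ADP-ribosyltransferase, Rtp4, an interferon-induced receptor transporter, and Oasl1, a translational repressor of Irf7 that overlaps Gm13822, rose in WT by 0.9, 1.34 and 1.26 and had KO-labelled estimates of 0.01, 0.27 and -0.06. Without KO-LPS replicate 1 their interactions went from -0.9, -1.07 and -1.32 to -0.97, -1.18 and -1.51. Ifit1, which binds RNA lacking the host cap methylation, rose by 2.59 in WT and 2.21 in KO-labelled libraries, and its interaction of -0.39 had a 95% interval of -1.53 to 0.76 (-0.35 without KO-LPS replicate 1). Its KO-LPS libraries, at 181, 289 and 133 CPM, all lay below WT-LPS, at 457, 415 and 379. The genotype gap of Ifit1 was negative in LPS (-1.12) and in saline (-0.73), where the groups overlapped. The sole member higher at an unadjusted p under 0.05 was Ifit1bl1, with 2 reads in all of KO-Saline (interaction 2.49 ± 1.19, and 2.24 without KO-LPS replicate 1). The KO-labelled LPS to saline ratio of Ifit1bl1 was 13.6 with a counting interval of 3.41 to 118.

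**Figure D4:**
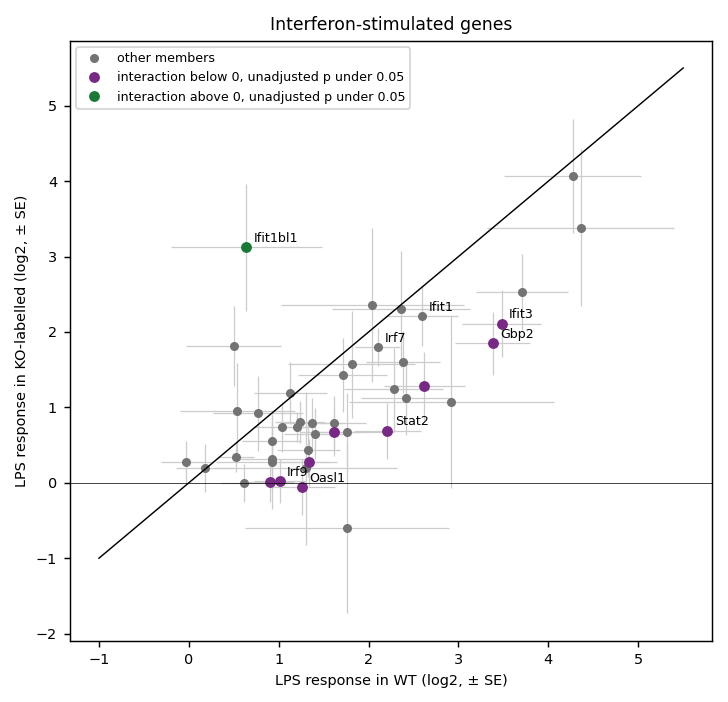
LPS responses (log2, with standard errors) of the 44 measured interferon-stimulated genes in WT (x axis) and in KO-labelled libraries (y axis). The diagonal marks equal responses. Of the 44, 36 lie below it, and the 9 with a negative interaction at an unadjusted p under 0.05 are shown in purple.

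Promoters of the list hold the interferon-stimulated response element, to which STAT2 and IRF9 bind, in members with and without a low interaction p. The motif searched was GAAA followed after any 2 bases by GAAA again, on both strands, in the 250 bases before the RefSeq start, and it occurred in 3.04% of 27025 promoters. Of 44 members 36 had a promoter in the RefSeq table, and 18 of these held it: 4 of 7 among the lower 9 and 14 of 29 among the others. A match is a description of the letters and not a site in use. Ifit1, shown beside 3 of the lower members, had LPS responses of 2.59 and 2.21 but a lower level in KO-LPS than in WT-LPS. The stretches of 250 bases before the start (RefSeq, GRCm38/mm10, 5′ to 3′ on the gene's strand, motif in capitals) are:
Stat2, chr10:128270248-128270497, plus strand: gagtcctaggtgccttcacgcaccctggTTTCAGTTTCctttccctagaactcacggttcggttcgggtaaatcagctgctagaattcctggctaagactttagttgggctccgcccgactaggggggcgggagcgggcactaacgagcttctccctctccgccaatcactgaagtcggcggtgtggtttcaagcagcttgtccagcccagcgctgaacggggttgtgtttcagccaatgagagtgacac
Rsad2, chr12:26456453-26456702, minus strand: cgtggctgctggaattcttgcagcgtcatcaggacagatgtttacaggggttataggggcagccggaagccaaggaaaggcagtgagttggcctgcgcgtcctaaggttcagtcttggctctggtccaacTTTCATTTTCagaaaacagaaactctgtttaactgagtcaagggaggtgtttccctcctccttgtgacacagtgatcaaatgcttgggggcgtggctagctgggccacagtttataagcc
Ifit3, chr19:34583279-34583528, plus strand: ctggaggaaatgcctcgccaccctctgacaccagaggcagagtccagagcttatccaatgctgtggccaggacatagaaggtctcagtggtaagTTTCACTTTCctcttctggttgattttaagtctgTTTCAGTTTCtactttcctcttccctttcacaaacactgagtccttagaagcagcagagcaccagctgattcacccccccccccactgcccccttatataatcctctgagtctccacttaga
Ifit1, chr19:34640639-34640888, plus strand: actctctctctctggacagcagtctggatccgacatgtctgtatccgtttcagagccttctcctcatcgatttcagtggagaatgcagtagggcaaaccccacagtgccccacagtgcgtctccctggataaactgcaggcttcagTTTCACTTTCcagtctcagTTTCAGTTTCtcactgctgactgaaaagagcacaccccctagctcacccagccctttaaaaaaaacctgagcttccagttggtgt
The motif lay 222 bases before the start in Stat2 and 120 in Rsad2. Ifit3 held it 2 times, 156 and 122 bases before the start, and Ifit1 also 2 times, at 104 and 85.

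Specific granule genes showed the largest negative median among the neutrophil lists with all libraries, and most of it was lost without KO-LPS replicate 1. Of 24 genes 21 were measured and 0 were called. Ltf, Ngp, Wfdc21, Cd177, Lcn2 and Ltb4r1, 6 members, were lower at an unadjusted p under 0.05 (background 2.88%), and none was higher (3.09%). Ltb4r1, a leukotriene B4 receptor and no granule content protein, is also in the adhesion and chemoattractant receptor list and is counted in both. Without KO-LPS replicate 1 there were 4 lower (2.9%) and 1 higher (2.88%), and the median went from -0.67 to -0.15. In WT 15 members rose with LPS (background 6.72%) and 1 fell (4.96%). In KO-labelled libraries 10 rose (background 1.99%) and 0 fell (1.35%), or 14 rose (5.97%) and 2 fell (5.5%) without that library. The mean level over the list was 6.04, 5.83 and 5.74 log2 CPM across WT-Saline and 6.98, 6.54 and 6.13 across KO-Saline, without overlap. With LPS it was 8.34, 8 and 8.37 in WT and 7.08, 8.52 and 8.4 in KO-labelled libraries, where replicate 1 was close to its saline group and the other 2 were above every WT-LPS library. In bulk RNA a change in the share of cells of a given maturity cannot be told apart from a change of the RNA in each cell.

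Lcn2, lipocalin 2, which binds bacterial siderophores, was at 324, 315 and 520 CPM across WT-Saline, 7510, 6060 and 6290 across WT-LPS, 667, 451 and 647 across KO-Saline and 867, 7240 and 7570 across KO-LPS. It rose in both genotype labels, by 4.13 ± 0.44 and 2.64 ± 0.44. Its interaction of -1.49 ± 0.63 became -0.46 without KO-LPS replicate 1. Cd177, a surface glycoprotein of neutrophils, moved likewise, from -1.44 to -0.58. Wfdc21, a small secreted protein, differed less between the fits (-1.38 and -1.26), as did Ltf. Wfdc21 was at 26.6, 46.5 and 57.7 CPM across WT-Saline, 160, 106 and 60.8 across KO-Saline, 218, 285 and 271 across WT-LPS and 197, 269 and 247 across KO-LPS, so that its gap was in saline. Wfdc21 and Cd177 were named after their values were seen.

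The promoter stretches of Ltf and Ngp are shown because C/EBP factors, C/EBP epsilon above all, are known to drive specific granule genes. The C/EBP motif searched was TTGCNNAA on both strands in the same window, and it occurred in 9.55% of all promoters. Of the 21 members 18 had a promoter and 7 held it, 3 of 5 among the lower members and 4 of 13 among the others. Capitals mark the motif:
Ltf, chr9:111019042-111019291, plus strand: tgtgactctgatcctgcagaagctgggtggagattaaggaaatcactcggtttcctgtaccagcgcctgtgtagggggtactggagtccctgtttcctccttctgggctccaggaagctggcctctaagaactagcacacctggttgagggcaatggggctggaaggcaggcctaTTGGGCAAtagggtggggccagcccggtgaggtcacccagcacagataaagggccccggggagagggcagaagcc
Ngp, chr9:110419558-110419807, plus strand: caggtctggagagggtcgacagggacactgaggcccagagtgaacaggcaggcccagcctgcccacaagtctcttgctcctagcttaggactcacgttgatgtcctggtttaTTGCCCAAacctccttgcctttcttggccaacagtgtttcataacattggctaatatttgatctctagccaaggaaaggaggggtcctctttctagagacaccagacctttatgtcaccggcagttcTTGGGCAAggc
The match lay 75 bases before the start in Ltf, and Ngp held 2, at 138 and 11 bases before it.

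Azurophil granule genes, of which 7 of 12 were measured, had 0 members past an unadjusted p of 0.05 (background 5.97%) and a median interaction of 0.28. That median was 0.74 without KO-LPS replicate 1 and ran from -0.52 to 1.13 over the alternatives. Ctsc, the protease that activates the granule serine proteases, had 0 reads in KO-Saline and was at 24, 37 and 25.7 CPM across KO-LPS, at least 4-fold higher than the floor allows (interaction 2.18, and 2.29 without KO-LPS replicate 1). Serpinb1a, an inhibitor of those proteases, had 2 reads in all of WT-Saline and was at 59.3, 44.3 and 59.5 CPM across WT-LPS and 10.7, 56.7 and 64.3 across KO-LPS, with an interaction of -2.2 that was -1.41 without replicate 1. Gelatinase granule and secretory vesicle genes, 14 measured, had a median of -0.3, and -0.1 without that library. Fpr1, the receptor for formylated bacterial peptides, was at 386, 293 and 294 CPM across WT-LPS and 109, 345 and 356 across KO-LPS, with an interaction of -1.38 ± 0.49 that was -0.82 without replicate 1. Vnn3, a pantetheinase, was higher in KO-LPS (66.7, 9.87 and 12.9 CPM) than in WT-LPS (4.74, 4.22 and 3.72). Its interaction of 2.62 ± 0.92 was 1.8 without replicate 1. Each WT-LPS library had 2 reads of Vnn3, and KO-LPS replicates 2 and 3 had 4 and 6, close to the floor of 3 reads.

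**Figure D5:**
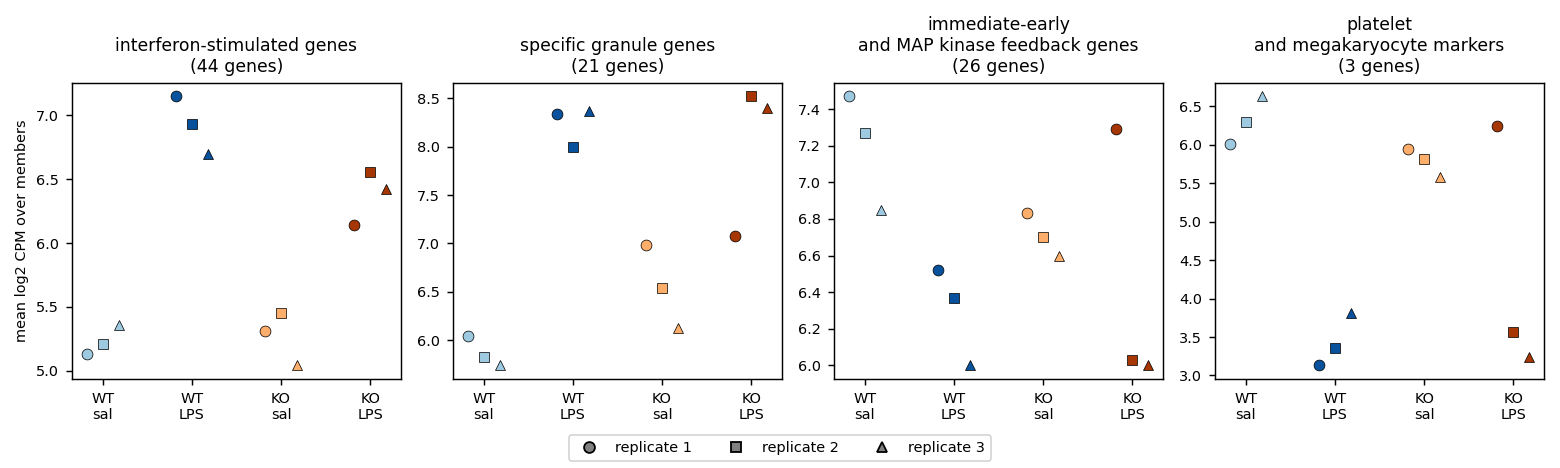
Mean log2 CPM (y axis) over the measured members of 4 gene lists in each library, by group (x axis) and replicate (symbol). KO-LPS replicate 1 (circle) lies among the saline libraries for platelet markers at 6.24 and for immediate-early genes at 7.29, near KO-Saline for specific granule genes at 7.08, and above all saline libraries for interferon-stimulated genes at 6.14.

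The immediate-early and MAP kinase feedback list, 26 of 31 genes measured, leaned the other way with all libraries and not without KO-LPS replicate 1. Its median interaction was 0.35, and 0.02 without that library, with 3 members higher and 0 lower at an unadjusted p under 0.05 (background 3.09% and 2.88%), or 2 higher and 2 lower without it (background 2.88% and 2.9%). In WT 10 members fell with LPS (background 4.96%) and 2 rose (6.72%). In KO-labelled libraries 2 fell (1.35%) and 3 rose (1.99%), or 11 fell (5.5%) and 3 rose (5.97%) without that library. Fos, the AP-1 subunit, named after its values were seen, was at 1700, 1350 and 970 CPM across WT-Saline, 192, 82.2 and 65 across WT-LPS, 701, 864 and 1150 across KO-Saline and 1530, 61.7 and 169 across KO-LPS. KO-LPS replicate 1 was at the saline level of Fos while replicate 2 lay just below the WT-LPS libraries and replicate 3 within their range, and the interaction went from 1.88 ± 0.84 to 0.58 without it. Csrnp1, a cysteine- and serine-rich nuclear protein whose exons overlap 1700019L13Rik on the other strand, had an interaction of 1.69 ± 0.54, and 1.15 without it. Dusp2, a nuclear phosphatase of MAP kinases, differed in kind: it had 1 read in all of KO-Saline and was at 13.3, 39.5 and 40.7 CPM across KO-LPS, a ratio of 40.2 (counting interval 6.81 to 1630), whereas WT-Saline (16.9, 16.9 and 5.59) and WT-LPS (37.9, 10.5 and 13) overlapped. Its interaction was 3.55 ± 1.3, and 4.05 without replicate 1.

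NF-κB targets, cytokines and chemokines, 35 of 42 measured, had a median interaction of -0.36 (-0.46 without KO-LPS replicate 1), with 1 member higher and 2 lower at an unadjusted p under 0.05 (background 3.09% and 2.88%). Nfkbia, the inhibitor IκBα that NF-κB induces against itself, was at 72.6, 127 and 83.8 CPM across WT-Saline, 474, 375 and 429 across WT-LPS, 488, 180 and 165 across KO-Saline and 427, 424 and 377 across KO-LPS. Its 3 KO-LPS libraries, replicate 1 included, were alike and within the WT-LPS range, so the interaction of -1.46 ± 0.44 (adjusted p = 0.676; -1.49 without replicate 1) rests on the higher KO-Saline level, above all on KO-Saline replicate 1 (-0.96 without that library). Lcn2, described with the granule genes, is the other lower member.

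Toll-like receptor and HMGB1 receptor signalling genes, 37 of 39 measured, had a median of -0.21, and -0.08 without KO-LPS replicate 1. Traf6, the ubiquitin ligase below MyD88, fell in WT from 82.3, 175 and 127 CPM to 37.9, 6.33 and 18.6, and in KO-labelled libraries went from 65.6, 47.7 and 75.4 to 131, 12.3 and 36.4. Its interaction of 2.16 ± 0.87 was 1.31 without KO-LPS replicate 1. Tlr13, the sensor of bacterial ribosomal RNA, had -0.92 ± 0.42, and -0.55 without it. The high-mobility group family, 11 of 17 measured, had 0 members past an unadjusted p of 0.05 (background 5.97%), a median of 0.12 (0.1 without it) and a range of -1.56 to 2.01. Hmgb2, the closest relative of Hmgb1 measured, was at 80.6, 56.9 and 100 CPM across WT-LPS and 152, 81.4 and 68.6 across KO-LPS, with an interaction of 0.82 ± 0.53 that was 0.48 without KO-LPS replicate 1. Hmga2, a chromatin protein of the same wider family whose exons overlap 1700006J14Rik on the other strand, had -1.56 ± 0.99 (-1.56 also without that library).

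NADPH oxidase and antioxidant genes, 26 of 27 measured, had a median of -0.18 (-0.09 without KO-LPS replicate 1), with 2 members lower at an unadjusted p under 0.05 (background 2.88%) and 0 higher (3.09%). Keap1, the adaptor that targets NRF2 for degradation, had an interaction of -4.38 ± 1.47 at low counts, and -2.93 without that library. Its exons overlap Gm16754 on the other strand, so its reads are uncertain. It was at 4.84, 12.7 and 0 CPM across WT-Saline, 35.6, 33.7 and 24.2 across WT-LPS, 21, 26 and 34.1 across KO-Saline, and 0, 44.4 and 15 across KO-LPS. Slc7a11, the cystine importer and an NRF2 target, fell in KO-labelled libraries from 220, 141 and 170 CPM to 66.7, 14.8 and 17.2 (-2.7 ± 0.49, adjusted p = 0.00263), and was at 62.9, 144 and 110 across WT-Saline and 94.8, 46.4 and 26 across WT-LPS, which overlapped. Its interaction was -1.67 ± 0.69, and -2.34 without KO-LPS replicate 1.

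Adhesion and chemoattractant receptor genes, 27 measured, had a median of -0.18 (-0.26 without KO-LPS replicate 1). At an unadjusted p under 0.05 there were 0 members higher (background 3.09%) and 2 lower (2.88%), Fpr1 and Ltb4r1, the leukotriene B4 receptor, whose interaction of -1.18 ± 0.54 was -0.75 without KO-LPS replicate 1. Inflammasome and cell death genes, 22 measured, had a median of 0.01 (0.02 without that library). Pycard, the inflammasome adaptor ASC, whose exons overlap Gm45205 on the other strand, fell in WT from 320, 326 and 358 CPM to 94.8, 213 and 167, and was at 247, 317 and 263 across KO-Saline and 216, 234 and 227 across KO-LPS. KO-LPS lay wholly above WT-LPS, and the interaction was 0.87 ± 0.38, or 0.9 without replicate 1 and 0.54 without WT-LPS replicate 1. Naip5, which senses bacterial flagellin, had -2.29 ± 1.11, and -1.46 without KO-LPS replicate 1.

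In the other lists, cell type markers apart, the interaction median lay between -0.37 and 0.26 with all libraries. It lay between -0.19 and 0.13 without KO-LPS replicate 1, beside 0.01 for all genes with all libraries. It was -0.37 for nuclear-encoded respiratory chain genes (36 measured), and -0.11 without that library, and 0.26 for cytosolic ribosomal protein genes (57), and 0.13 without it. For lipid mediator genes (15) it was -0.16, and -0.06 without it. It was 0.06 for apoptosis regulators (19), -0.04 for autophagy genes (33), 0.07 for heat shock and unfolded protein response genes (24) and 0.05 for glycolysis genes (22), and -0.04, -0.19, -0.06 and 0.03 without that library. At an unadjusted p under 0.05 (background 3.09% higher and 2.88% lower), 1 lipid mediator gene was higher and 2 were lower, 2 heat shock genes and 2 ribosomal protein genes were higher and 0 lower, and 1 member each of the apoptosis, autophagy and respiratory chain lists was lower and 0 higher. No glycolysis gene passed in either direction. Hsf1, the heat shock transcription factor, named after its values were seen, was at 276, 152 and 311 CPM across WT-Saline against 78.7, 93.3 and 143 across KO-Saline, and 19, 173 and 126 across WT-LPS against 187, 118 and 167 across KO-LPS. The LPS groups overlapped. Its interaction was 2.23 ± 0.69, and 2.09 without KO-LPS replicate 1, but 1.27 without WT-LPS replicate 1, the low library of its group.

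Some markers of other cell types moved with KO-LPS replicate 1. The median interaction was 1.01 for platelet markers (0.03 without that library) and 1.05 for dendritic cell markers (0.54). It was 0.34 for monocyte and macrophage markers (0.23) and -0.55 for T and NK cell markers (-0.81). For mature neutrophil markers it was -0.17 (-0.21) and for immature ones -0.14 (-0.5). The lists of B cell, erythroid, and eosinophil, basophil and mast cell markers held 1 measured gene each. These genes were at -0.44, -0.03 and -0.37 (0.07, 0.62 and -1.34). Of 11 platelet and megakaryocyte markers 3 were measured (Gp9, Gp1ba and Clec1b), at a mean of 6.01 to 6.63 log2 CPM across WT-Saline, 5.58 to 5.94 across KO-Saline, 3.13 to 3.81 across WT-LPS, and 6.24, 3.56 and 3.24 across KO-LPS. Of 12 dendritic cell markers 8 were measured. Their summed level was 269 to 378 CPM across WT-Saline, 194 to 236 across KO-Saline and 44.6 to 90.1 across WT-LPS. Across KO-LPS it was 192, 27.1 and 87.9 CPM. Clec9a, chosen above for its interaction, is among them and overlaps the platelet marker Clec1b. The mean level of this list was 3.73, 1.81 and 3.17 log2 CPM across KO-LPS. It was 2.73, 2.72 and 1.92 across WT-LPS and 3.96, 3.98 and 2.77 across KO-Saline, so that KO-LPS overlapped both. Of 14 T and NK cell markers 3 were measured, at a mean of 4.87, 3.13 and 4.21 log2 CPM across KO-LPS. Across WT-LPS they were at 3.27, 3.88 and 3.82. The 7 measured of 14 monocyte and macrophage markers summed to 808 to 1090 CPM across WT-LPS and 520, 891 and 712 across KO-LPS. Ly6c2 among them, at 64, 390 and 225 CPM across KO-LPS, is also carried by neutrophils and was chosen above for its low interaction. The mean level of this list was 5.16, 5.79 and 5.32 log2 CPM across KO-LPS, with replicate 1 close to replicate 3. The sole measured B cell marker of 8, Cd79a, was at 101 to 134 CPM across WT-LPS and 34.7, 104 and 101 across KO-LPS. Of 9 erythroid markers 1 was measured, Alas2, at 37.9, 33.7 and 7.43 CPM across WT-LPS and 5.34, 32.1 and 19.3 across KO-LPS. Mature neutrophil markers were as high in KO-LPS replicate 1 (9.22 log2 CPM) as elsewhere. Within them Ly6g, the surface antigen by which mouse neutrophils are sorted, was at 9.68, 10.6 and 16.8 CPM across WT-Saline, 42.7, 108 and 108 across WT-LPS, 47.2, 49.9 and 36.5 across KO-Saline and 53.4, 111 and 131 across KO-LPS, with an interaction of -1.58 ± 0.67 and, without KO-LPS replicate 1, -1.19. Clec4e, the receptor Mincle, had 1.32 ± 0.42, and 0.86 without it. Ly6g and Clec4e were named after their values were seen. The part of these cell types in the interaction was not tested.

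An interaction can come from a genotype gap in saline, in LPS or in both. In saline 1 gene was called between the genotype labels (0.0107%), and 31 without KO-LPS replicate 1 (0.331%). In LPS 0 were called by limma (471 at an unadjusted p under 0.05, or 5.02%, and 1 called with voom's weights). The gene called in saline was Ecm1, an extracellular matrix glycoprotein, which was at 152, 112 and 205 CPM across WT-Saline and 34.1, 32.5 and 36.5 across KO-Saline (-2.11 ± 0.33, adjusted p = 0.00715). With LPS it was at 268, 291 and 177 CPM in WT and rose to 93.4, 151 and 217 in KO-labelled libraries, where the genotype groups overlapped. Its LPS response was 0.65 ± 0.33 in WT and 2.04 ± 0.33 in KO-labelled libraries, and the interaction was 1.39 ± 0.47 (adjusted p = 0.766), or 1.7 without KO-LPS replicate 1. Its neighbour on chromosome 3, Adamtsl4, an ADAMTS-like matrix protein, was also lower in KO-Saline (714, 746 and 630 CPM) than in WT-Saline (1170, 1540 and 1540), and was at 1030, 981 and 630 across WT-LPS and 880, 787 and 1020 across KO-LPS. Its interaction was 1.06 ± 0.30, and 1.07 without that library. Ecm1 and Adamtsl4 were named after their values were seen.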

How the data were processed

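RNA sequencing was done on neutrophils from mouse blood, 4 groups of 3 libraries grouped by their labels. The authors deposited 1 table of log2 values for 9374 NCBI Gene IDs, and the submitters' processing notes name the genome build mm10. Aligner, counter, strand setting and gene filter: not given in the sources used here. The deposited log2 values have the form of log2 CPM with 0.5 reads added, since whole reads were recovered (tolerance 1e-04) from 100% of values in every column. Each gene had at least 8 reads in total. The reads, 399702 to 526757 per library, gave the depth and the CPM of the text, and the tests used the log2 values as they stood, so fold changes of low genes are understated.

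The test was limma 3.58.1 (R 4.3.3): 1 mean per group fitted over the 12 libraries, moderated with a mean-variance trend, two-sided, with Benjamini-Hochberg adjustment within a comparison and calls at an adjusted p under 0.05. It was tested on simulated data. Symbols were found for 9372 IDs and mm10 positions (GENCODE M21, 1-based) for 9296, of which 3419 (36.8%) have exons overlapping a gene on the other strand. Where a group had 0 reads, folds are bounds against 3 reads per library, and with 1 to 3 reads they are ratios of pooled reads with exact 95% intervals. Promoter and microRNA sequences are RefSeq's.

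Genes were named by rule: Hmgb1, all called genes, the 10 smallest interaction p-values in each direction among genes whose highest group mean reached the median of that quantity (predicted genes, pseudogenes and receptor segments left aside), and the 2 of smallest p from each core gene list. A gene that the rule names is not reported here. Other genes are said in the text to be named after their values were seen. The members and lists were chosen with earlier results of these data known. Alternatives were TMM factors, voom and library quality weights, no trend, 2 reads added, a mean of at least 10 reads, no opposite-strand overlap, a replicate block and leaving out each library, and, chosen after seeing the data, leaving out KO-LPS replicate 1 and KO-Saline replicate 3 together.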

Additional observations from a re-analysis of the deposited data

Results flagged for a closer look

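For 3 genes the test of the difference between the genotype labels' LPS responses passed the threshold once KO-LPS replicate 1 was left out (limma with Benjamini-Hochberg adjustment). Among them Csnk1d, described in the report, had an interaction of 1.57. D630041G03Rik, an uncharacterised long non-coding RNA, had one of -2.42 ± 0.48. Each had an adjusted p of 0.0327 in that test. No mm10 position was found for D630041G03Rik, so its overlap with opposite-strand genes could not be checked and its reads are uncertain. D630041G03Rik was at 143, 171 and 166 CPM across WT-Saline, 66.4, 118 and 98.5 across WT-LPS, 144, 332 and 387 across KO-Saline, and 48, 27.1 and 27.9 across KO-LPS. Its KO-LPS libraries, replicate 1 included, were the lowest of all. With all 12 libraries its interaction was -2.16 ± 0.51 (adjusted p = 0.272), from a response of -0.79 ± 0.36 in WT and -2.95 ± 0.36 in KO-labelled libraries, so that its KO-labelled response was the larger one. Its p was among the smallest, and it is not among the 20 genes described in the report because predicted and Rik-named genes were left aside there. It was named after its values were seen.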

How the results depend on the processing

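Of 21 alternatives run, the interaction gave 0 calls under TMM factors, no trend, 2 reads added, the filter at a mean of 10 reads, the removal of genes with opposite-strand overlap and the replicate block. It gave 2 calls with voom weights (Csnk1d among them, adjusted p = 0.0303), 4 with library quality weights (Csnk1d, D630041G03Rik and Ltf among them, adjusted p = 0.036) and 5 without KO-LPS replicate 1 and KO-Saline replicate 3 (Cfap54, Csnk1d, Chrna2, Ngp and Ltf). Leaving out 1 library gave 0 to 7 calls: 1 when WT-LPS replicate 2 was left out, and 3, 7 and 6 when KO-LPS replicate 1, 2 or 3 was, with Csnk1d among them for each of the KO-LPS libraries. Where it leaves 2 libraries in a group, these are assumed to vary like the others. The LPS response in WT gave 363 calls without the trend and 623 without overlapping genes, where fewer genes were tested, and 734 to 1427 leaving out 1 library. The LPS response in KO-labelled libraries gave 16 without the trend, 904 with quality weights, 186 without overlapping genes, 898 without both libraries, and 32 to 1076 leaving out 1 library. The genotype difference in saline gave 2 calls with voom weights, 0 without the trend, 17 with quality weights, 4 with 2 reads added, 31 without both libraries, and 0 to 31 leaving out 1 library, and that in LPS gave 1 with voom weights and 0 to 2 leaving out 1 library. The WT response and the saline difference use no KO-LPS library, so leaving one out left their estimates unchanged. What changed there was the estimate of the spread, which all groups share. Apart from this and the smaller tables, the cause of these shifts was not tested. Of the 40 genes named by rule, the sole reversal was that of Hmgb1, to 0.13 without both libraries, and its values leaving out 1 library were -1.28 to -0.22. That of Ifit1, named after its values were seen, ran from -0.98 to 0.1 leaving out 1 library, positive only without KO-Saline replicate 2. Of 538 list medians 43 moved by at least the spread between replicates.

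The labels do not say that replicate numbers pair the samples. Over 18 same-numbered pairs the correlation of deviations ran from -0.13 to 0.05, 0 were over 0.1, and in 4 of the 18 the same number was the best match. With 3 libraries a group at this depth, such values cannot decide whether samples were paired. With the replicate block the interaction gave 0 calls, the LPS response in WT 1086, the LPS response in KO-labelled libraries 336, the saline difference 1 and the LPS difference 0.

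A count test with edgeR or DESeq2, planned as an alternative, was not run, although whole reads were recovered from the deposited log2 values. Depth limits the rest: with a median of 11.33 reads per gene and 3 libraries a group, the interaction's median 95% interval of 2.04 to either side leaves moderate differences undetectable.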
